A study of Mus musculus with 10 samples.

Results

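The genes of the LON domain family and of the ATP-dependent mitochondrial proteases were followed in whole hearts of trained and sedentary mice. The 10 genes are Lonrf1, Lonrf2, Lonrf3, Lonp1, Lonp2, Clpp, Clpx, Afg3l2, Spg7 and Yme1l1, out of 56748 gene identifiers in the count tables. All 10 had enough reads to be among the 15454 genes tested. They were selected on function after the change of Lonrf1 between the groups was known, so their differences between training and sedentary hearts are given as a description and without p-values.

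RNA was measured in 10 hearts, both atria included, of wild-type male C57BL/6 mice that entered the study at 8 weeks of age. The 5 training mice ran on a treadmill for 8 weeks at 15 m/min, for 120 min per day on 5 days per week, after a period of rest and acclimatisation. The 5 sedentary mice were of the same age and did not train. Each heart gave 1 library of poly-A RNA, sequenced as single reads with the strand kept. Between 29461697 and 35945417 reads per training heart and between 35196993 and 39431030 per sedentary heart were counted on genes. Values are CPM, the read counts scaled to a common library size with a TMM factor, an estimate of library composition that takes most genes as unchanged. Log2 fold changes compare training with sedentary hearts, and a gene was called at an FDR below 0.1 over all genes tested.

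Mitochondrial proteins are kept in order by proteases that use ATP to unfold their substrates. LONP1 and the CLPP peptidase with its unfoldase CLPX work in the matrix. The m-AAA protease of AFG3L2 and SPG7 and the i-AAA protease YME1L1 sit in the inner membrane and face its opposite sides. LONP2 is the counterpart of LONP1 in the matrix of peroxisomes. The LONRF proteins carry a LON substrate-binding domain and RING fingers, as ubiquitin ligases do, and have no LON protease part. Heart muscle, rich in mitochondria, depends on this quality control.

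Lonrf1 was the 1 gene of the 10 that was called, and it was higher in the training hearts by 55.4%. The estimates of the other 9 genes ran from −0.13 to 0.12 on the log2 scale. Across all tested genes 2.75% were called higher and 4.26% lower, 7.01% in either direction. Lonrf1 was also the 1 gene of the 10 whose groups did not overlap in CPM, against 5.06% of all tested genes. With 4 genes above 0 and 6 below, the median log2 fold change of the 10 was −0.03 beside 0.00026 over all genes, and with scaling to library totals alone it was 0.02, with 5 above and 5 below.

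Lonrf1 (ENSMUSG00000039633) lies on the minus strand of chromosome 8 of GRCm39, from 36683154 to 36716670, and its canonical transcript has 12 exons. It was measured at 5.79, 5.52, 5.46, 6.46 and 6.77 CPM in sedentary hearts 1 to 5, and at 8.32, 9.31, 9.37, 10.5 and 9.16 CPM in training hearts 1 to 5. Each training heart was above each sedentary heart. The means were 9.32 ± 0.762 CPM (SD, n = 5) after training and 6.00 ± 0.585 CPM (SD, n = 5) in sedentary hearts. The log2 fold change was 0.64 with a standard error of 0.083 and a 95% interval from 0.46 to 0.81. Leaving out each heart in turn moved it between 0.59 and 0.68, and with the level of atrial marker genes as a covariate it was 0.65. These values rest on 189 to 350 reads per heart, and the hearts of a group varied by 9.0% around their mean where counting noise alone would give 6.23%. In the authors' TPM, which count per transcript length, Lonrf1 was at 1.38 to 1.64 in the sedentary and 2.14 to 2.85 in the training hearts, again without overlap. Reads on the strand opposite to the 10 genes, where Lonrf1 has 3 overlapping neighbours, made up between 0.182% and 0.84% of their counts.

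**Figure D1:**
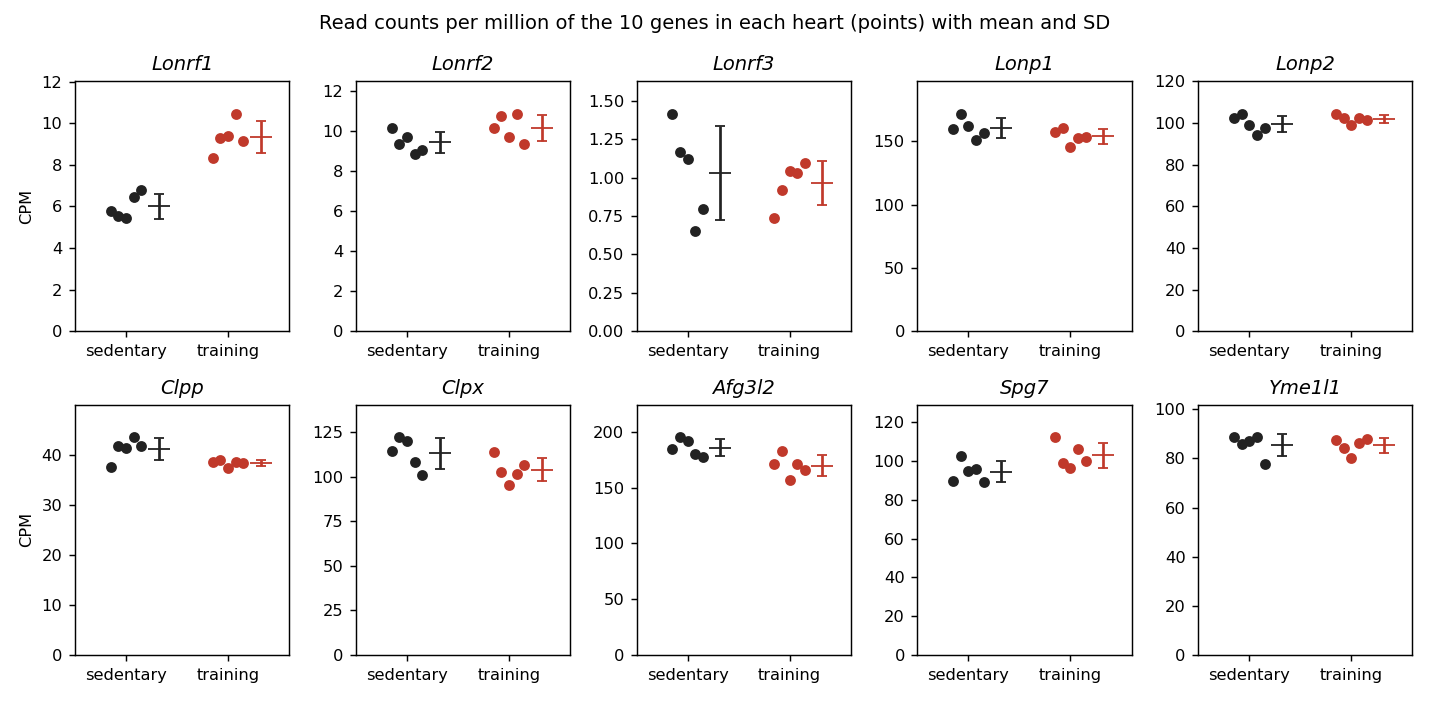
CPM (linear axis from 0, 1 panel per gene) of the 10 genes in each sedentary (black) and training (red) heart, with the mean and SD of each group (n = 5) beside the points. The training hearts lie above all sedentary hearts for Lonrf1, at 8.32 CPM and above against at most 6.77 CPM, and the groups overlap for the other 9 genes.

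Lonrf2 and Lonrf3 encode the paralogs of LONRF1, and neither was called. Lonrf2 (ENSMUSG00000048814, chromosome 1, 38832453 to 38875792, minus strand, 12 exons) was at 8.88 to 10.2 CPM in the sedentary hearts and 9.35 to 10.9 CPM in the training hearts. Its log2 fold change was 0.11 with a 95% interval from −0.031 to 0.24. Lonrf3 (ENSMUSG00000016239, chromosome X, 35592006 to 35626038, plus strand, 11 exons) had 23 to 57 reads per heart, so its interval from −0.56 to 0.35 was the widest of the 10. It was at 1.42, 1.17, 1.12, 0.654 and 0.795 CPM in sedentary hearts 1 to 5 and at 0.736 to 1.10 CPM in the training hearts. The log2 fold change of −0.10 turned to 0.04 without sedentary heart 1. Crbn, which encodes the ubiquitin ligase receptor cereblon and also carries a LON domain, was at 37.9 ± 1.82 and 38.2 ± 1.85 CPM (SD, n = 5 each), a log2 fold change of −0.01, which turned to 0.04 with library totals alone.

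Lonp1 and Lonp2, the LON proteases of mitochondria and peroxisomes, differed little between the groups. Lonp1 (ENSMUSG00000041168, chromosome 17, 56921291 to 56933980, minus strand, 18 exons) was at 160.0, 171.8, 161.9, 150.7 and 156.9 CPM in the sedentary hearts and at 157.6, 160.2, 145.1, 152.7 and 153.6 CPM in the training hearts. The groups overlapped, and the log2 fold change was −0.06 with a 95% interval from −0.15 to 0.03. Lonp2 (ENSMUSG00000047866, chromosome 8, 87350549 to 87450501, plus strand, 15 exons) was at 94.3 to 104 CPM in the sedentary and 99.1 to 104 CPM in the training hearts, a log2 fold change of 0.03 with an interval from −0.046 to 0.11.

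The matrix protease subunits Clpp and Clpx both had lower means after training, without passing the FDR. Clpp (ENSMUSG00000002660, chromosome 17, 57296971 to 57303369, plus strand, 6 exons), the peptidase, was at 37.4, 41.6, 41.4, 43.4 and 41.6 CPM in sedentary hearts 1 to 5 and at 38.6, 38.9, 37.3, 38.4 and 38.3 CPM in training hearts 1 to 5. Sedentary heart 1 lay among the training hearts, and the other sedentary hearts lay above all of them. The log2 fold change of −0.10 (95% interval −0.19 to −0.0070) became −0.13, with a call, when sedentary heart 1 was left out. This was the 1 call of Clpp among the 10 fits without 1 heart. Clpp was not called with library totals alone, at −0.046, or with the atrial marker covariate, at −0.058. Clpx (ENSMUSG00000015357, chromosome 9, 65201540 to 65239568, plus strand, 12 exons), the unfoldase, was at 101 to 122 CPM in the sedentary and 95.7 to 114 CPM in the training hearts. Its log2 fold change was −0.12 with an interval from −0.25 to 0.0054, and its hearts varied within a group by 7.14%, against 1.62% from counting.

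The partners of the m-AAA protease had differences of opposite sign, and neither was called. Afg3l2 (ENSMUSG00000024527, chromosome 18, 67535762 to 67582318, minus strand, 17 exons) was at 185.1, 195.1, 191.5, 180.5 and 177.4 CPM in the sedentary hearts and at 170.8, 183.3, 157.0, 171.5 and 165.8 CPM in the training hearts. Of the training hearts, 4 of 5 were below all sedentary hearts, and training heart 2 was not. The log2 fold change was −0.13 with a 95% interval from −0.23 to −0.034. Afg3l2 was called by DESeq2's Wald test, with −0.13, and without training heart 2, with −0.16, the 1 call among the 10 fits without 1 heart. It was not called with library totals alone, at −0.079, or with the atrial marker covariate, at −0.098. Spg7 (ENSMUSG00000000738, chromosome 8, 123789681 to 123825776, plus strand, 17 exons), which encodes paraplegin, was at 89.5, 102.5, 94.7, 96.0 and 89.3 CPM in the sedentary hearts and at 112.2, 99.1, 96.6, 106.2 and 100.2 CPM in the training hearts. Here 2 of 5 training hearts were above all sedentary hearts, and the log2 fold change was 0.12 with an interval from 0.014 to 0.23. With library totals alone Spg7 was called, at 0.18, and it was called in 0 of the 10 fits without 1 heart.

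Within each heart the ratio of Afg3l2 to Spg7 reads does not depend on the scaling of the library. It was 2.07, 1.90, 2.02, 1.88 and 1.99 in sedentary hearts 1 to 5 and 1.52, 1.85, 1.63, 1.62 and 1.66 in training hearts 1 to 5, with means of 1.97 ± 0.0797 and 1.65 ± 0.12 (SD, n = 5 each). The groups did not overlap, although training heart 2 came close to sedentary heart 4. In TPM the ratio was 1.07 to 1.31 in the training and 1.23 to 1.5 in the sedentary hearts, and the groups overlapped. Of the 10 genes, Spg7 and Lonrf1 did not overlap in TPM. Spg7 was at 48.8 to 52.8 TPM in the training and 42.9 to 48.2 TPM in the sedentary hearts. The share of all genes without overlap was computed for CPM alone, and TPM carry no TMM factor. The transcript length that RSEM assigned to Spg7, which weights its isoforms, was 2238 ± 64.6 bases in the training and 2137 ± 82.9 bases in the sedentary hearts (SD, n = 5 each), with overlap. Of 6 ratios between partners, Afg3l2 to Spg7 was the 1 without overlap in reads. Lonp1 to Lonp2 overlapped narrowly, at 1.464 to 1.565 in the training and 1.562 to 1.65 in the sedentary hearts. The share of ratios without overlap among other pairs of genes was not computed. Clpp to Clpx was at 0.369 ± 0.0203 in the training and 0.365 ± 0.0390 in the sedentary hearts.

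**Figure D2:**
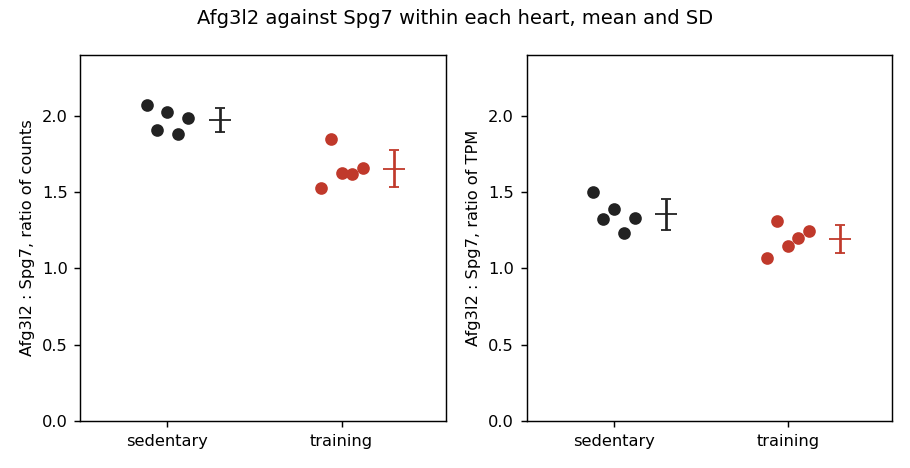
Ratio of Afg3l2 to Spg7 in each sedentary (black) and training (red) heart, from reads on the left and from TPM on the right, with the mean and SD of each group (n = 5). The groups are apart in reads, at 1.52 to 1.85 against 1.88 to 2.07, and overlap in TPM.

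Yme1l1 (ENSMUSG00000026775, chromosome 2, 23046034 to 23089281, plus strand, 19 exons), the i-AAA protease that also cleaves OPA1, had the difference nearest to 0. It was at 88.6, 85.8, 87.2, 88.5 and 77.8 CPM in the sedentary hearts and at 80.3 to 88.0 CPM in the training hearts. The log2 fold change was −0.0049 with a 95% interval from −0.10 to 0.091, and it turned to 0.05 with library totals alone. Sedentary heart 5 lay below all the other hearts.

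**Figure D3:**
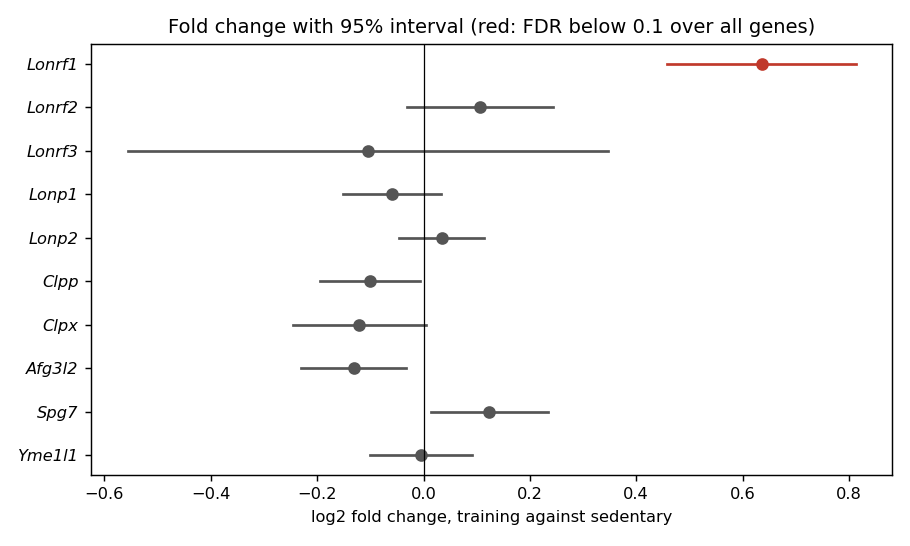
Log2 fold change, training against sedentary, for the 10 genes, as points with 95% intervals from edgeR (not adjusted for the number of genes), red for the called gene. The interval of Lonrf1 runs from 0.46 to 0.81. The estimates of the other genes run from −0.13 for Afg3l2 to 0.12 for Spg7, and of these Yme1l1 turns above 0 with library totals alone.

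Levels of different genes can be compared in TPM. Over the 10 hearts Afg3l2 was the highest, at 60.8 ± 3.66 TPM (SD, n = 10), followed by Lonp1 at 54.6 ± 3.00, Spg7 at 48.0 ± 3.06, Clpp at 46.0 ± 1.42, Clpx at 45.3 ± 4.57 and Lonp2 at 37.7 ± 3.15 TPM. These 6 genes were between the 87.6th and the 92.5th percentile of the tested genes. Yme1l1 was at 19.3 ± 1.14 TPM. The LONRF genes were far lower, with Lonrf1 at 2.04 ± 0.575, Lonrf2 at 1.66 ± 0.155 and Lonrf3 at 0.485 ± 0.132 TPM. Neighbours in this order were compared within hearts by an exact two-sided sign-flip test of the log2 ratio, with adjustment over the 9 pairs. Of these, 6 differed at an adjusted p below 0.05. Spg7 and Clpp (exact p = 0.105, adjusted p = 0.119, higher in 7 of 10 hearts) and Clpp and Clpx (exact p = 0.549, adjusted p = 0.549, higher in 6 of 10 hearts) were not separated. Spg7 was above Clpp in 5 of 5 training hearts, with means of 50.3 and 45.8 TPM, while in the sedentary hearts the means of Clpp, Clpx and Spg7 were 46.1, 45.7 and 45.7 TPM. For Lonrf1 and Lonrf2 no p is given, since their pooled order carries the difference of Lonrf1 between the groups. Their order differed by group, as Lonrf2 was above Lonrf1 in 3 of 5 sedentary hearts, by a mean log2 ratio of 0.02, and Lonrf1 was above Lonrf2 in 5 of 5 training hearts, by 0.53.

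**Figure D4:**
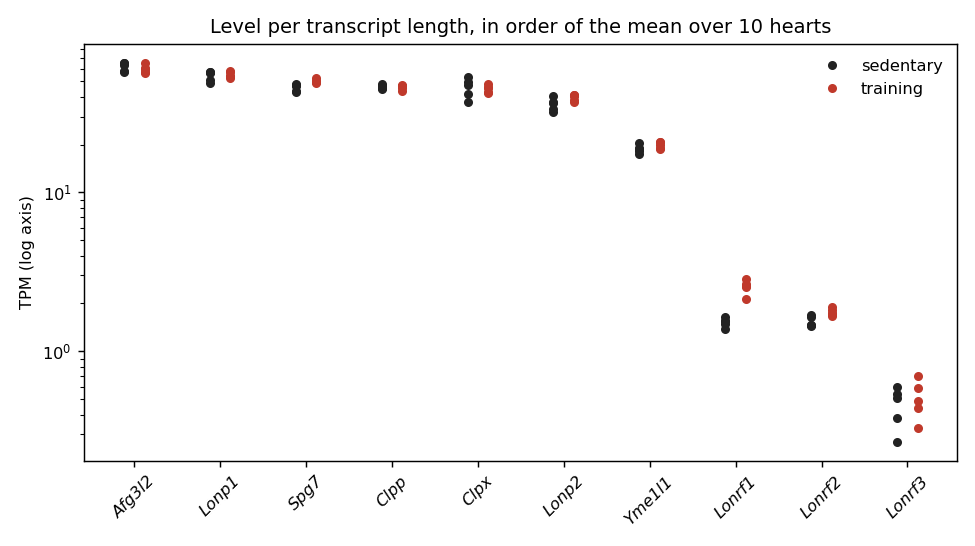
TPM (log axis) of the 10 genes in each sedentary (black) and training (red) heart, in order of the mean over 10 hearts. The mitochondrial and peroxisomal proteases lie between 17.3 and 65.2 TPM and the LONRF genes at 2.85 TPM or less, with Lonrf1 the 1 gene of the LONRF group whose colours are apart.

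Partner genes were also compared across hearts, after the mean of the group was taken from each log2 CPM, so that the difference between groups plays no part. Lonp1 and Lonp2 correlated over 10 hearts, with Pearson's r = 0.858 (exact permutation test within groups, p = 0.00431, adjusted p = 0.0258 over 6 pairs) and Spearman's rho = 0.806 (exact permutation test, p = 0.0139, adjusted p = 0.0833). Without the 2 hearts farthest from the median of Lonp1, r was 0.663 over 8 hearts (exact permutation test, p = 0.0694, adjusted p = 0.158), so the sign was kept and the call rests on those hearts. Leaving out 1 heart took the adjusted p above 0.05 for sedentary heart 2 (r = 0.774, exact permutation test, adjusted p = 0.108), sedentary heart 4 (r = 0.789, adjusted p = 0.1), sedentary heart 5 (r = 0.852, adjusted p = 0.0708) and training heart 3 (r = 0.845, adjusted p = 0.15), with r from 0.774 to 0.929 over all 10 such fits. No other pair passed over the 10 hearts. Afg3l2 and Spg7 had r = 0.431 (exact permutation test, p = 0.249, adjusted p = 0.498) and rho = 0.527 (exact permutation test, p = 0.15, adjusted p = 0.45). Clpp and Clpx had r = −0.0511 (exact permutation test, p = 0.93), Lonp1 and Clpp r = −0.0204 (p = 0.963) and Lonrf1 and Lonrf3 r = −0.335 (p = 0.402), each with an adjusted p of 0.603 or more. Their rho was −0.139 (exact permutation test, p = 0.725), 0.0909 (p = 0.823) and −0.37 (p = 0.34), with adjusted p of 0.68 or more. For Yme1l1 and Afg3l2 r was 0.404 (exact permutation test, p = 0.248, adjusted p = 0.498) with rho = 0.0182. Without the 2 hearts farthest from the median of Yme1l1, r turned to −0.95 over 8 hearts (exact permutation test, p = 0.00347, adjusted p = 0.0208). Its rho over these 8 hearts was −0.905 (exact permutation test, p = 0.0104, adjusted p = 0.0625). In that setting this pair passed by r but not by rho, while Lonp1 and Lonp2 passed by neither.

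The promoters of Lonp1 and Lonp2 are shown because these were the genes that varied together. Both come from RefSeq on GRCm38.p6, run from 250 bases before to 50 bases after the start of transcription, and are written on the strand of the gene. Lonp1 lies at chr17:56626854-56627153 and the first start of Lonp2 at chr8:86623793-86624092, and capitals mark matches to the motifs searched.
Lonp1: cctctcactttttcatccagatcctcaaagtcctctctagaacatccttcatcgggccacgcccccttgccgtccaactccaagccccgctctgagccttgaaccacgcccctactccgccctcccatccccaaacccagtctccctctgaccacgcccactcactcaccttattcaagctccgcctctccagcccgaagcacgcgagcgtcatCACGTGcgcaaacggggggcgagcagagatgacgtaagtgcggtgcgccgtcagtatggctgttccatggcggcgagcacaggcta
Lonp2: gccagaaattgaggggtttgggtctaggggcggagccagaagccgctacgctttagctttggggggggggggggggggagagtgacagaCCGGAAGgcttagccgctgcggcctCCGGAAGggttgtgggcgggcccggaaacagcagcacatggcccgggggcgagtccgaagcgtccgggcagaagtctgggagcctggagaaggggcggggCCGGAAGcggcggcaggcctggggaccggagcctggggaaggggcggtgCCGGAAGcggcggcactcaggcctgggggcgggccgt
Of the 10 genes, 8 had 9 promoter entries. The search on both strands covered the E-box CACGTG, the ETS core CCGGAAG, the amino acid response core TGATGNAA, the cyclic AMP response element TGACGTCA, the estrogen-related receptor half-site AAGGTCA and the CHOP half-site TGCAAT. Lonp1 had an E-box starting 36 bases before the start of transcription and no ETS core, and this Lonp2 window had 4 ETS cores and no E-box. An E-box was present in 7.15% and an ETS core in 8.86% of 32851 windows of this length. Clpp had 1 ETS core and Yme1l1 had 3, while the second start of Lonp2 had an E-box and a TGATGNAA match. Lonrf3 had an E-box at 45 bases before its start, and the windows of Lonrf2, Clpx and Spg7 held none of these letters.

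Around the 10 genes, a list of 66 genes of the same pathways was compared, of which 65 were tested. Of these, 10 were lower after training and 0 higher by edgeR, beside 4.26% and 2.75% of all genes. On the log2 scale 51 of the 65 lay below 0, beside 7716 of all 15454 genes tested. The median of the 65 was −0.07. Like the 10 genes, the lists were chosen with earlier results of these data known. Their counts and adjusted p-values are therefore a description and not an independent test. DESeq2's Wald test called 13 lower and 0 higher. With library totals alone, which moved the median of all genes by 0.053, none of these 10 was called, 37 genes were below 0, and Pink1 and Trap1 were called higher. The 10 calls became 1 without sedentary heart 2, sedentary heart 3 or training heart 4, and 2 without sedentary heart 4, training heart 3 or training heart 5, as well as 5 without sedentary heart 5.

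The list of protease scaffolds and regulators, with 8 tested genes, and that of mitochondrial chaperones, with 10, held 5 of the 10 lower genes. Phb1 and Phb2 encode the prohibitins, the ring in the inner membrane that binds the m-AAA protease. Phb2 was at 147 ± 6.25 CPM after training and 165 ± 6.43 CPM in sedentary hearts (SD, n = 5 each), and it fell by a log2 value of 0.16 (edgeR, adjusted p = 0.0521). Phb1 had a log2 fold change of −0.13 (edgeR, adjusted p = 0.0932), and for both genes all 5 training hearts were below all sedentary hearts. The same held for Parl, Grpel1, Opa1 and Cat, so that 6 of the 65 pathway genes did not overlap, beside 5.06% of all tested genes. Ghitm, the most abundant gene of the scaffold list, was at 529.8 ± 29.9 and 517.6 ± 20.6 CPM, with 0.03 on the log2 scale and no call. Of the 10 tested mitochondrial chaperone genes, 9 were below 0 and 3 were called, with a median of −0.15. Dnaja3, a cochaperone of mitochondrial HSP70, had −0.14 (edgeR, adjusted p = 0.0848), and the nucleotide exchange factors Grpel1 and Grpel2 had −0.16 (edgeR, adjusted p = 0.0861) and −0.21 (edgeR, adjusted p = 0.0933). Hspa9, mitochondrial HSP70 itself, was the most abundant of them at 746 ± 29.8 and 803 ± 36.4 CPM, with a log2 fold change of −0.11 and no call.

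In a list of 16 genes, of other mitochondrial proteases and the ATPase AFG1L, Parl and Afg1l were lower and 12 were below 0. Parl, the rhomboid protease of the inner membrane, was at 36.6 ± 1.64 and 40.6 ± 2.02 CPM (SD, n = 5 each; log2 fold change −0.15; edgeR, adjusted p = 0.0970). Afg1l, an ATPase of the same membrane, had −0.19 (edgeR, adjusted p = 0.0730). The processing peptidase gene Pmpca and the stress-activated protease gene Oma1 were not called, at 0.0083 and −0.05 on the log2 scale. Of 13 genes of protease substrates, 11 were below 0 and 2 were lower. Opa1, which encodes the inner membrane fusion protein cleaved by YME1L1 and OMA1, was at 245 ± 8.85 and 270.0 ± 12.5 CPM (SD, n = 5 each; log2 fold change −0.14; edgeR, adjusted p = 0.0854). Mrpl32, a ribosomal protein matured by the m-AAA protease, had −0.20 (edgeR, adjusted p = 0.0972), and Tfam, whose protein LONP1 degrades, had −0.06 without a call.

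The genes induced under mitochondrial stress did not move together. Of 9 such genes, 8 were tested, 4 on either side of 0, and edgeR called 0, with 1 at an unadjusted p below 0.05 and 1 called by DESeq2 (Atf4). Atf4, the transcription factor of this response, was at 58.3 ± 3.80 CPM after training and 65.3 ± 3.71 CPM in sedentary hearts (SD, n = 5 each), and Ddit3, which encodes CHOP, at 11.4 ± 1.22 and 9.60 ± 1.86 CPM. Of 9 genes of peroxisomal matrix proteins and their import, Cat alone was called. Cat, which encodes catalase, fell from 262 ± 6.75 to 229 ± 11.8 CPM (SD, n = 5 each; log2 fold change −0.19; edgeR, adjusted p = 0.0281), and it was the 1 call that held in all 10 fits without 1 heart. Each of the other 9 genes was called in 2 to 5 of these 10 fits. Pex5, the import receptor, had 0.07 without a call.

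**Figure D5:**
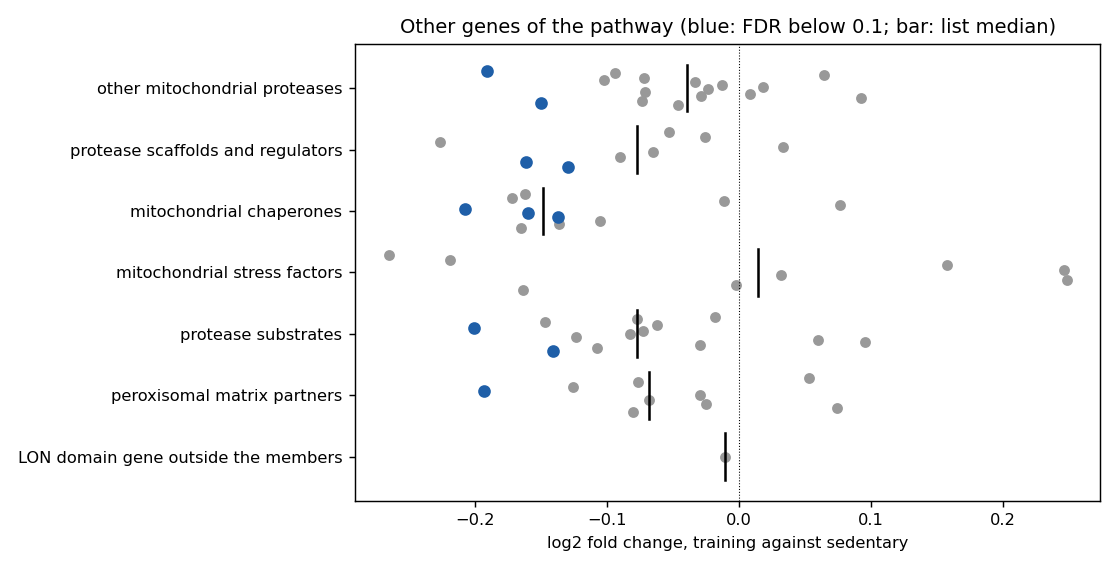
Log2 fold change, training against sedentary, for the 65 tested pathway genes, 1 row of points per list, blue at an FDR below 0.1, with the median of each list as a bar. The 10 called genes lie between −0.21 and −0.13, and with scaling to library totals alone none of them is called.

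The hearts also differed in markers of cell types and chambers. Of 8 atrial markers, 2 were higher (Sln and Dkk3), their median log2 fold change was 0.48, and their summed level was 5156 to 7744 CPM after training and 2855 to 6963 CPM in the sedentary hearts, with no marker at 0. The summed level of 7 endothelial markers did not overlap, at 770.5 to 838.7 CPM after training and 850.6 to 902.0 CPM in the sedentary hearts, and 1 of them was called lower. The 8 cardiomyocyte markers summed to 57970 to 62940 and 61060 to 70110 CPM, with 1 called lower. The summed level of 7 skeletal muscle markers, 2 of them called lower (Acta1 and Ckm, both also made in heart muscle), did not overlap either, at 1841 to 2294 against 2334 to 2663 CPM. This sum is almost all Ckm and Acta1, while Tnnt3 and Actn3, the other tested genes of the list, had log2 fold changes of 0.43 and 0.49 without a call, and the list median was 0.11. Of 7 fibroblast markers 2 were higher, with sums of 1350 to 1689 and 1181 to 1487 CPM. Of 7 adipocyte markers 6 were tested and 0 called, with a median log2 fold change of 0.74. Their sums varied widely, at 20.7 to 177.9 CPM after training and 18.1 to 139.1 CPM in the sedentary hearts. Of 7 mural markers 1 was called higher and 1 lower, and no macrophage, neuron or Schwann cell marker was called. In whole hearts, fewer cells of a type and less RNA per cell cannot be told apart. With the atrial markers as a covariate in edgeR, Lonrf1 was still called, while 0 of the 65 pathway genes were, with 10 at an unadjusted p below 0.05 and 41 below 0. All 10 genes called without the covariate kept their sign. Cat went from −0.19 to −0.21 and Grpel2 from −0.21 to −0.23. The others of the 10 moved toward 0, with Parl from −0.15 to −0.08, Opa1 from −0.14 to −0.08 and Afg1l from −0.19 to −0.17. The calls over all genes went from 1084 to 150. The covariate, the centred mean log2 CPM of the atrial markers, went partly with the group. It was 0.0448 to 0.608 in the training and −0.945 to 0.368 in the sedentary hearts. With it the standard error rose for Lonrf1 from 0.083 to 0.110, for Cat from 0.042 to 0.053 and for Grpel2 from 0.064 to 0.082. A lost call therefore need not mean a smaller difference. The part of the other markers in these results was not tested.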

How the data were processed

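The authors aligned the reads with STAR 2.7.10a to GRCm39 and deposited, for every gene and strand, the raw count of reads that mapped uniquely. They also deposited expected counts and TPM per gene from RSEM 1.3.3, whose strand setting is not given in the sources used here. The reverse-strand counts were used, which held 94.9% to 95.7% of the reads on either strand. Lines without a gene did not enter the library sizes, and per heart multimapping reads were 17.9% to 19.2%, reads on no gene 4.15% to 4.89% and ambiguous reads 0.940% to 0.998% of the table. Groups follow the labels. Symbols and positions came from GENCODE M39 by Ensembl identifier, which matched 56017 of 56748.

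Counts were filtered with filterByExpr, scaled by TMM and compared by edgeR 4.0.16's quasi-likelihood test in R 4.3.3, with Benjamini-Hochberg adjustment over 15454 genes and an FDR below 0.1, of which 1084 were called. The FDR threshold is that of the study. Log2 CPM had a prior count of 2. The 95% intervals are not adjusted for the number of genes. Pairs of libraries within a group differed by more than counting noise (chi-square per degree of freedom 6.19 to 27.6), so none was taken as a duplicate. TPM order was tested over 9 neighbours by sign flips, whose smallest p with 10 hearts is 0.00195, and correlations over 14400 permutations within groups. Called pathway genes and the most abundant gene of a list were named, and Oma1, Tfam, Ddit3, Pex5, Pink1 and Trap1 were named outside this rule, after their values were seen, while 2 genes that the rule selects are not reported here. The members and lists were chosen with earlier results of these data known. In simulated counts of training against sedentary hearts with 15311 genes, edgeR recovered 68 of 98 genes changed by 0.5 and 92 of 97 changed by 1 on the log2 scale, with 7.51% false calls. DESeq2 1.42.0 recovered 74 and 91, with 18.3% false calls. Changes as small as those of the called pathway genes were not simulated. Genes were drawn independently of each other, so these shares need not hold for the calls in the hearts. Alternatives were DESeq2, its size factors, library totals alone, RSEM expected counts rounded to whole numbers, both strands, a filter of 10 counts per library, no filter, the mouse number as a block, an atrial marker covariate, an FDR below 0.05 and each heart left out. Promoters of Lonrf1 and Afg3l2 were not analysed here.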

Additional observations from a re-analysis of the deposited data

Results flagged for a closer look

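Among 40 groups of 5 hearts examined (CPM of the 10 genes and of the 10 called pathway genes, in the training and in the sedentary hearts), 1 held a value far from the others. Yme1l1 in sedentary heart 5 was at 77.75 CPM, while the other sedentary hearts were at 85.8 to 88.6 CPM, a gap of 0.746 of the whole range. Chance sets apart a value in about 1 in 20 such groups. Without this heart the log2 fold change of Yme1l1 was −0.04 in place of −0.0049.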

How the results depend on the processing

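Lonrf1 kept its call in all 19 alternatives, with log2 fold changes from 0.59 to 0.69. Of the 10 members 1 was called, and 2 with DESeq2 (Afg3l2 added) or library totals alone (Spg7 added), and 1 to 2 with each heart left out (Clpp without sedentary heart 1, Afg3l2 without training heart 2). The 10 pathway calls became 2 with library totals alone, both higher, 0 with the atrial covariate, 1 at an FDR below 0.05, and 1 to 11 with each heart left out. Over all genes the 1084 calls, 425 higher and 659 lower, became 150 with the atrial covariate, 505 at an FDR below 0.05, and 512 to 1490 with each heart left out (512 without sedentary heart 3 or training heart 4, 1490 without sedentary heart 1), while library totals alone turned the split to 1029 higher and 339 lower. The correlated pairs, 1 of 6, were 0 to 1 with each heart left out, and 0 without sedentary heart 2, 4 or 5 or training heart 3. Without the 2 hearts farthest from the median, Yme1l1 and Afg3l2 passed with r = −0.95, in place of Lonp1 and Lonp2. The log2 fold change of Yme1l1 turned to 0.047 with library totals alone and lay between −0.038 and 0.016 with each heart left out, and that of Lonrf3 between −0.23 and 0.042. Hearts with the same mouse number were not paired, with residual correlations of −0.097 to 0.159, and not every heart correlated best with its own number. With the number as a replicate block 1 member, 6 pathway genes and 1137 genes in all were called. Level order gave 6 to 7 separated neighbours throughout, and within 1 group, with 5 hearts, no count at an adjusted p below 0.05 was possible. The cause of these shifts was not tested. Lonrf3, with 23 to 57 reads per heart, is limited by depth.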

Other observations

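The genes whose log2 CPM followed Lonrf1 most closely over the 10 hearts, among 13093 genes of at least 1 CPM, were 2410002F23Rik (Pearson's r = 0.972), Stag1 (0.950), Vangl2 (0.945), Cys1 (0.944) and Snd1 (0.938). After the mean of each group was taken off, they were Cep135 (0.946), Gm13436 (0.940), Hmbox1 (0.939), Ndst2 (0.929) and Gbf1 (0.921), so no gene was in both sets of 5. For Lonp1, Pfkl, which encodes a phosphofructokinase, was in both sets, with r = 0.936 over hearts and 0.952 after the group means were taken off. Fam185a was in both as well, at 0.916 and 0.989. These values describe 10 libraries, were picked as the highest of many and carry no test.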
